A study of Mus musculus with 8 samples.

Results

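The Krüppel-like factors described here are 10 genes, Klf2, Klf3, Klf4, Klf5, Klf6, Klf7, Klf9, Klf10, Klf11 and Klf13, taken by symbol from a count table of 55471 genes. Each symbol had 1 row in the table, and all 10 genes passed the filter on low counts. The cells were SV-LEC, an established mouse line labelled as lymphatic endothelial, derived from the mesenteric adventitia and immortalized with SV40. Cells of the untreated group received no TGFβ1 and those of the other group received 10 ng/ml TGFβ1 for 72 h, with 4 RNA libraries per group and 8 in all. Both groups come from 1 immortalized line, and the study's methods call the 4 samples of a group technical replicates, so errors and p-values measure only the spread between these samples. Whether a lower count reflects fewer cells with a transcript or less of it per cell cannot be told apart in such bulk RNA.

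Krüppel-like factors are transcription factors that bind GC-rich DNA and CACCC boxes through zinc fingers at the C-terminal end of the protein, while the N-terminal part recruits coactivators or corepressors. Klf2 and Klf4 are known in endothelial cells as genes switched on by laminar flow through the MEKK3, ERK5 and MEF2 cascade, and they favour a quiescent, non-inflamed state. Klf10 and Klf11 were first described as TGFβ-inducible early genes, and their products repress Smad7, an inhibitor of TGFβ signalling. Klf9 and Klf13 act largely through the corepressor SIN3A, and Klf3 acts through CTBP.

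Promoter sequences are shown for the 3 genes with the largest changes among the 10, to set the DNA letters that the family itself binds beside genes of the family. RefSeq windows on GRCm38.p6 were found for 8 of the 10 genes, and Klf5 and Klf10 were not matched. The 250 bases before the RefSeq start were searched on both strands. For some genes this start differs from that of the GENCODE positions given below. By those positions the Klf2 gene begins at 72319033, so the end of its window lies inside it. The windows of Klf3, Klf6 and Klf11 also reach into their genes, and that of Klf7 lies wholly inside. Capitals mark CACCC, the MEF2 consensus and GGGCGG. In Klf4 and Klf13, 1 pair of matches overlaps in each window. The Klf2 window lies on the plus strand at chr8:72318812-72319061, the Klf4 window on the minus strand at chr4:55532476-55532725, and the Klf13 window on the minus strand at chr7:63938916-63939165.
Klf2: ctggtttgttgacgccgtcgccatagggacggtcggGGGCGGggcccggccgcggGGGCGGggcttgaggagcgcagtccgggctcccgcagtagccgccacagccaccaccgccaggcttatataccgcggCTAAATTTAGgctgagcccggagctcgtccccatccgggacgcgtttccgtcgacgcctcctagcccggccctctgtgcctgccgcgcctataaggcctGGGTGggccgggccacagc
Klf4: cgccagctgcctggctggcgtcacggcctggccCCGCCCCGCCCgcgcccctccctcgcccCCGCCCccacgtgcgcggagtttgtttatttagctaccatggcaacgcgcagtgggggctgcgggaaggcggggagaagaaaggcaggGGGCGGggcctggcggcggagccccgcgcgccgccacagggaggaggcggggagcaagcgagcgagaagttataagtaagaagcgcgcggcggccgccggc
Klf13: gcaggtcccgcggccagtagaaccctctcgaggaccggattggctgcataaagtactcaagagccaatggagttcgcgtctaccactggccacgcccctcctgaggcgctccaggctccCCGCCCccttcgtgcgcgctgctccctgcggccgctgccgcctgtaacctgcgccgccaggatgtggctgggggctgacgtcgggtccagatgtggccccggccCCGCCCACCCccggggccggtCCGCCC

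A GGGCGG match was present in 7 of the 8 promoters, Klf9 being the exception, and in 32.7% of all 32851 promoter windows of this length. Klf4 and Klf11 held 4 such matches each and Klf3 held 6. The 8 windows were rich in G and C, at 59.2% to 78.4% of bases. The shares over all windows were not matched for this, so they do not set Klf promoters apart from others equally rich in G and C. CACCC was present in 5 of the 8 promoters and in 52.0% of all windows. The Klf2 promoter held a match to the MEF2 consensus, CTAAATTTAG, from 118 to 109 bases before the RefSeq start, and no other promoter of the 8 held one in this window. The consensus occurred in 2.92% of all windows. CAGAC, the letters of a SMAD box, was found once, in Klf3, against 42.2% of all windows, and the CArG box bound by SRF was found in none of the 8 and in 1.47% of all windows. These matches describe letters in a window and were not examined for binding.

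The labelled cell type was compared with its markers. Total counts per library were between 18952504 and 26386941, so that 3 reads, the limit for a gene at 0, equal 0.113 to 0.162 CPM, the read count scaled to library size (counting error only). Of 4 lymphatic markers Pdpn and Flt4 were present, at 342 ± 19.5 and 21.6 ± 1.23 CPM in untreated cells, while Prox1 had at most 2 and Lyve1 at most 3 reads in any library. Of 6 pan-endothelial markers Kdr was present (11.6 ± 0.548 CPM untreated, 22.1 ± 0.761 CPM treated), Tek held 8 to 18 reads, and Pecam1, Cdh5, Tie1 and Emcn had at most 5, 2, 0 and 1 reads. Summed levels ran from 344 to 381 and from 337 to 348 CPM for the lymphatic list and from 11.5 to 13.1 and from 22.1 to 23.9 CPM for the pan-endothelial list, untreated before treated. Of 5 fibroblast and mural markers, Col1a1, Pdgfra, Pdgfrb and Acta2 were well counted and Rgs5 had at most 7 reads. Their sum ran from 3144 to 4506 CPM in untreated and from 6479 to 7584 CPM in treated libraries. Of the blood markers Ptprc had at most 1 read and Cd68 rose by 1.19 on the log2 scale, with sums of 5.83 to 7.82 and 14.8 to 16.9 CPM, and Hbb-bs was not analysed here. The 3 epithelial markers summed to 0.203 to 0.830 and 1.46 to 2.29 CPM, with Krt8 higher by 1.99 on the log2 scale. The labelled endothelial identity was thus not borne out by Prox1, Lyve1, Pecam1, Cdh5, Tie1 and Emcn, each with 0 to 5 reads per library, while Col1a1 stood at 3459 ± 611 CPM in untreated cells. What is known of Klf2, Klf4 and their targets in endothelial cells is given below as background on these genes and not as a description of this line. The part of these marker levels in the results on Klf genes was not tested.

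Treatment with TGFβ1 lowered 7 of the 10 Klf genes, raised 2 and left 1 without a significant change. Klf4, Klf13, Klf5, Klf3, Klf9, Klf6 and Klf11 fell, Klf2 and Klf10 rose, and Klf7 did not pass the test. Each change is given as a log2 fold change of treated over untreated cells (log2FC) with its standard error (SE), and it was called where the Benjamini-Hochberg false discovery rate (FDR) of the edgeR likelihood ratio test, taken over 13818 genes, was under 0.05. At this threshold 75.6% of all genes tested were called, 37.6% as higher and 38.0% as lower, so a call by itself does not set a Klf gene apart. These shares are also the background for the counts of calls in the gene lists below. The median log2FC was -0.41 over the 10 genes and -0.01 over all genes tested. In 9 of the 10 genes the untreated and treated libraries did not overlap in CPM, as in 69.8% of all genes tested. The summed reads on the 10 genes were between 1116 and 1125 CPM in untreated libraries and between 810 and 844 CPM in treated libraries.

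**Figure D1:**
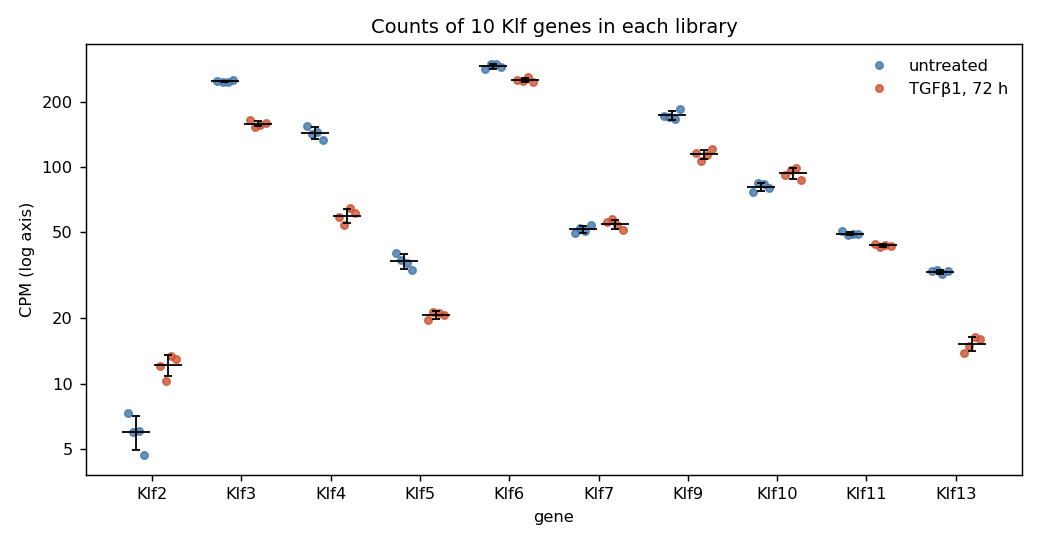
CPM (log axis) of each of the 10 Klf genes in the 4 untreated and 4 TGFβ1-treated libraries, with points for libraries and bars for the mean ± SD. Klf2 and Klf10 lie higher after TGFβ1, Klf7 overlaps between the groups, and the treated libraries of the other 7 genes lie below all untreated ones.

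Klf2 and Klf4, the flow-responsive pair, moved in opposite directions. Klf2 (ENSMUSG00000055148, GRCm38 chromosome 8, 72319033 to 72321656) had 7.28, 5.97, 6.03 and 4.67 CPM in the untreated libraries and 12.1, 10.3, 13.4 and 13.0 CPM in the treated libraries. All treated libraries were therefore above all untreated ones. Its mean rose from 5.98 ± 1.07 to 12.2 ± 1.37 CPM (SD over libraries, n = 4), a log2FC of 1.03 with SE 0.128 and edgeR FDR 2.63e-15. Klf2 was the least counted of the 10 genes, with 92 to 334 reads per library, and 10.6% of all genes tested had a higher log2FC.

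Klf4 (ENSMUSG00000003032, chromosome 4, 55527143 to 55532466), also one of the reprogramming factors of pluripotency, had 156, 143, 146 and 134 CPM in the untreated libraries and 59.0, 53.9, 64.5 and 61.1 CPM in the treated libraries. Every treated library lay below every untreated one. The mean fell from 144.5 ± 9.20 to 59.6 ± 4.43 CPM (SD, n = 4), a log2FC of -1.28 with SE 0.0617 and edgeR FDR 2.05e-92. This was the largest fall among the 10 genes, and 4.15% of all genes tested had a lower log2FC.

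Klf5, which is known for its part in smooth muscle and epithelial proliferation, fell from 36.8 ± 2.85 to 20.8 ± 0.829 CPM (SD, n = 4). Untreated libraries held 33.5 to 40.3 CPM and treated libraries 19.6 to 21.5 CPM, without overlap. The log2FC was -0.82 with SE 0.0678 and edgeR FDR 4.44e-33. Klf5 lies on chromosome 14 from 99298691 to 99315036.

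Klf10, on chromosome 15 from 38291463 to 38300706, had 76.8, 84.4, 83.3 and 80.1 CPM in the untreated libraries and 91.8, 97.2, 99.1 and 87.2 CPM in the treated libraries. The lowest treated library was just above the highest untreated one. The mean rose from 81.1 ± 3.44 to 93.8 ± 5.42 CPM (SD, n = 4), a log2FC of 0.21 with SE 0.0536 and edgeR FDR 0.000185. Klf11, on chromosome 12 from 24651274 to 24662789, went the other way, from 49.4 ± 0.975 to 43.5 ± 0.613 CPM, a log2FC of -0.18 with SE 0.0474 and edgeR FDR 0.000212. Its untreated libraries held 48.7 to 50.8 CPM and its treated libraries 42.8 to 44.3 CPM. Of the 2 TGFβ-inducible early genes, 1 was thus slightly higher and 1 slightly lower at 72 h, by 1.155-fold and 1.13-fold. Smad7, the gene that both products repress, rose from 26.7 ± 1.34 to 49.7 ± 1.25 CPM, a log2FC of 0.89.

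Klf13 and Klf9, the genes of SIN3A-binding factors, both fell. Klf13 (ENSMUSG00000052040, chromosome 7, 63886351 to 63938915), which is known for its part in Ccl5 expression in T cells, had 33.1, 33.7, 32.0 and 33.0 CPM in the untreated libraries and 13.8, 14.9, 16.4 and 16.0 CPM in the treated libraries. All treated libraries lay below the untreated ones, which were close together. The log2FC was -1.10 with SE 0.0646 and edgeR FDR 6.96e-66, and 5.38% of all genes tested fell further. Klf9, a gene induced by thyroid hormone and glucocorticoids, fell from 174 ± 8.16 to 115 ± 5.99 CPM, with untreated libraries between 167 and 186 CPM and treated libraries between 107 and 121 CPM. Its log2FC was -0.60 with SE 0.0504 and edgeR FDR 5.25e-32, and it lies on chromosome 19 from 23141226 to 23168134.

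Klf3, a CTBP-recruiting repressor on chromosome 5 from 64803388 to 64832901, fell from 249 ± 2.45 to 159 ± 4.85 CPM (SD, n = 4), a log2FC of -0.65 with SE 0.0387 and edgeR FDR 2.15e-61. Untreated libraries held 247 to 252 CPM and treated libraries 154 to 166 CPM. Klf6, an injury-responsive activator on chromosome 13 from 5861482 to 5870394, was the most counted of the 10 genes and fell by a smaller step, from 294 ± 7.92 to 253 ± 5.26 CPM. Its groups did not overlap, at 284 to 301 and 248 to 260 CPM, and the log2FC was -0.21 with SE 0.0389 and edgeR FDR 8.91e-08.

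Klf7, the closest relative of Klf6 and known from neuronal development, had 49.5, 52.3, 50.9 and 54.1 CPM in the untreated libraries and 55.6, 57.5, 53.8 and 51.0 CPM in the treated libraries. The groups overlapped, and the log2FC of 0.07 did not pass the threshold (SE 0.0543, edgeR FDR 0.205). Klf7 lies on chromosome 1 from 64029447 to 64122282, and 37.6% of its stretches of read length, 75 bases, are also found on the opposite strand in Gm26649. Since the setting for strand in counting is not given in the sources used here, the counts of Klf7 are less certain. Gm26649 itself had no row in the count table. Klf3 shared 2.88% of its stretches with other genes, and the other 8 genes shared none.

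**Figure D2:**
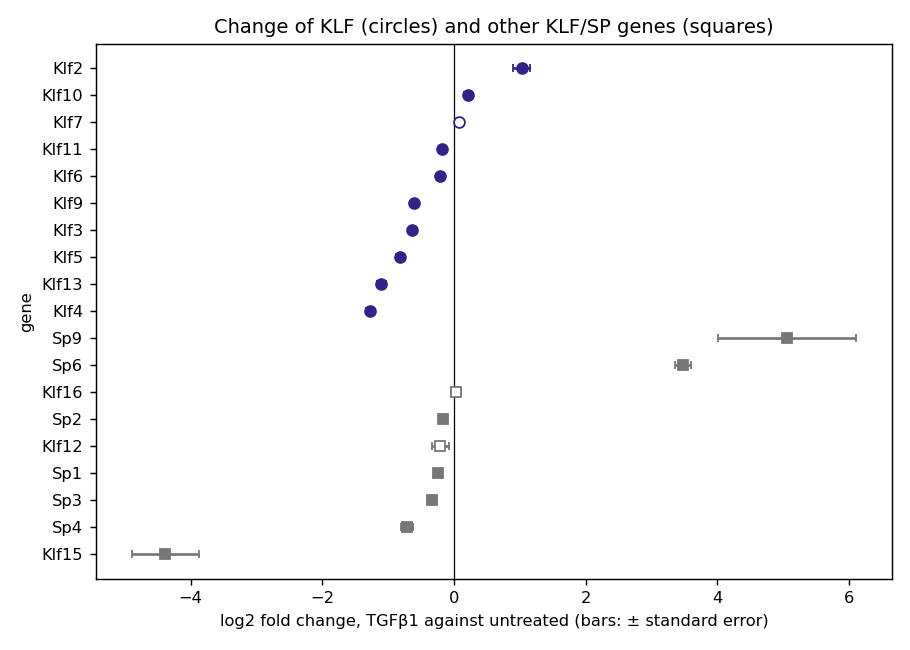
Log2FC (± standard error) of the 10 Klf genes (circles) and of 9 further KLF and SP genes that were tested (squares), with open symbols where the change did not pass the threshold. Klf2 at 1.03 and Klf4 at -1.28 bound the 10 genes, and the points of Klf15, Sp9 and Sp6 lie far outside this range. Klf15 held at most 3 reads in any treated library and Sp9 at most 1 read in any untreated library. Whether the points of Klf15 and Sp9 change with the prior count was not tested.

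Levels of different genes were compared per length, as RPKM, the CPM per kilobase of merged exons in GENCODE M21. The order depends on these lengths, such as 1847 bases for Klf2 with 1 transcript and 11243 for Klf3 with 9. By CPM, Klf3 at 249 lay above Klf4 at 144.5 in untreated cells. The transcripts in use were not known, and the SD and overlaps below do not include this uncertainty. In untreated cells Klf6 was highest at 66.8 ± 1.81 RPKM (SD, n = 4), followed by Klf4 at 47.4 ± 3.02, Klf9 at 36.2 ± 1.69, Klf3 at 22.2 ± 0.218 and Klf10 at 19.4 ± 0.823 RPKM. Klf11, Klf5, Klf7, Klf13 and Klf2 followed, from 11.4 down to 3.24 RPKM. In this order Klf5 and Klf7 were the neighbours whose libraries overlapped. After TGFβ1, Klf6 remained highest at 57.7 ± 1.20 RPKM, while Klf9 at 23.8 ± 1.25, Klf10 at 22.5 ± 1.30 and Klf4 at 19.6 ± 1.45 RPKM came next, with overlapping libraries between Klf9 and Klf10 and between Klf10 and Klf4. Klf2 moved from the lowest level to 6.60 ± 0.743 RPKM, overlapping with Klf7 at 6.70 ± 0.340 RPKM, and Klf13 became the lowest at 2.03 ± 0.158 RPKM.

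The summed level of the 10 genes was 224 ± 2.21 RPKM in untreated and 167 ± 3.93 RPKM in treated cells. Klf4 made up 21.1% ± 1.18 of this sum before and 11.7% ± 0.628 after treatment (SD, n = 4). Klf6 made up 29.8% ± 0.804 and 34.5% ± 0.458, and Klf10 8.65% ± 0.372 and 13.4% ± 0.764. The share of Klf2 went from 1.44% ± 0.245 to 3.95% ± 0.373. The sum rests on all transcripts of each gene merged, and isoforms could not be told apart in counts per gene.

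**Figure D3:**
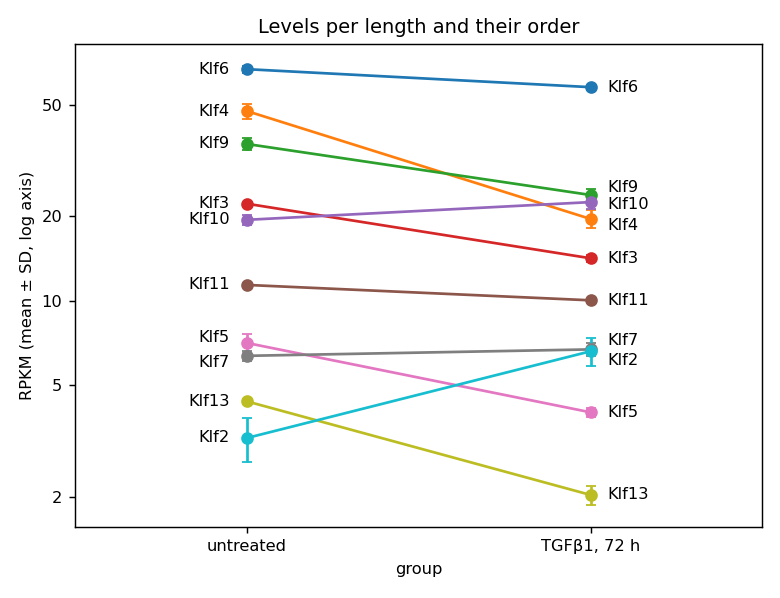
RPKM (mean ± SD over 4 libraries, log axis) of the 10 Klf genes in untreated and TGFβ1-treated cells, with 1 line per gene. The line of Klf4 drops from the second to the fourth place and that of Klf2 rises from the last place to meet Klf7.

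Pairs of related genes were then compared within each library, where the ratio of 2 counts needs no scaling between libraries. The ratio of Klf2 to Klf4 was between -4.83 and -4.42 on the log2 scale in untreated libraries and between -2.38 and -2.24 in treated libraries, a change of 2.31 (SE 0.0914). Klf9 to Klf13 changed by 0.51 (SE 0.0710), from 2.40 to 2.91, so the fall of Klf13 was the larger. Klf10 to Klf11 changed by 0.39 (SE 0.0628), from 0.72 to 1.11. Both pairs had treated ratios above all untreated ones. Klf4 to Klf5 changed by -0.46 (SE 0.0668) and Klf6 to Klf7 by -0.29 (SE 0.0479), with treated ratios below all untreated ones. In each of the 5 pairs an exact two-sided permutation test over libraries gave p = 0.0286, which is the smallest value that 4 against 4 libraries allow, and p = 0.0286 after Benjamini-Hochberg adjustment over the 5 pairs. For Klf2 to Klf4 and Klf10 to Klf11 the genes of a pair moved in opposite directions, each without overlap in CPM. The result of the permutation test was thereby fixed for these pairs and adds nothing to the results on the single genes.

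**Figure D4:**
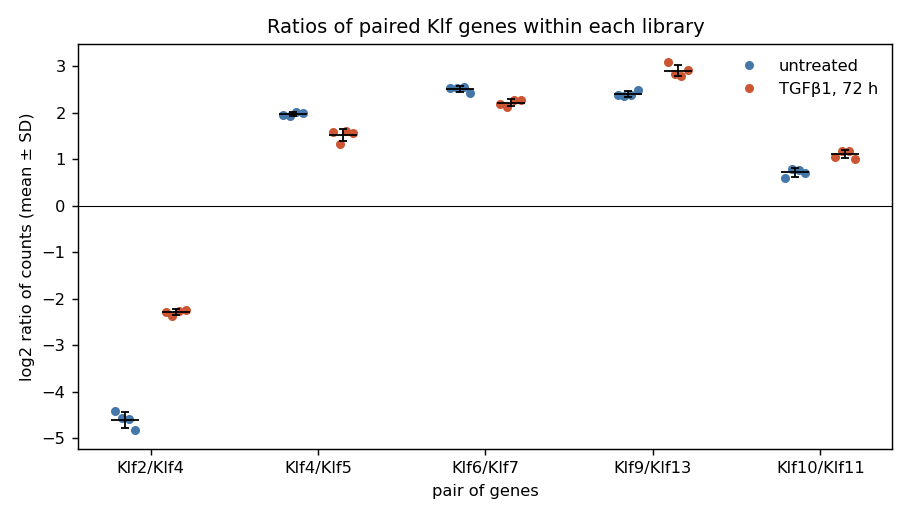
Log2 ratio of the counts of 2 Klf genes within each library, for 5 pairs, with points for the 4 libraries of a group and bars for the mean ± SD. The ratio of Klf2 to Klf4 moves most, from about -4.60 to -2.29, and no pair overlaps between the groups.

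Relative to their means, untreated libraries differed most in Klf2, Klf5 and Klf4, and all of these were highest in replicate 1 and lowest in replicate 4. Klf2 spread from 4.67 to 7.28 CPM and Klf5 from 33.5 to 40.3 CPM. In treated cells Klf2 and Klf4 were highest in replicate 3 and lowest in replicate 2, whereas Klf5 was highest in replicate 2. This order was compared with 15 immediate early genes, which respond within minutes to handling and growth factors, after the values had been seen. In untreated cells 6 of the 15, Fosb, Ier2, Ier3, Jun, Junb and Zfp36, had their highest and lowest library where Klf2 had them, and in treated cells 2 of the 15 did, Ier2 and Ier3. The share of all genes tested with this order was not computed, so these counts do not set the 15 genes apart. Untreated replicates 1 and 4 differed widely over all genes, with a chi-square per degree of freedom of 7.82, near the highest value of 7.84 between libraries of a group. Junb had 121, 105, 69.4 and 48.1 CPM in the untreated libraries. In the treated libraries it deviated from its group mean in log2(CPM + 1) by -0.39, -0.54, 0.41 and 0.52. Ier2 ran from 27.7 to 51.0 CPM in untreated and from 37.7 to 55.2 CPM in treated libraries. The part of this spread in the results on Klf2 and Klf4 was not tested. The log2FC of Klf2 lay between 0.93 and 1.12 and that of Klf4 between -1.32 and -1.23 when each library was left out in turn.

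**Figure D5:**
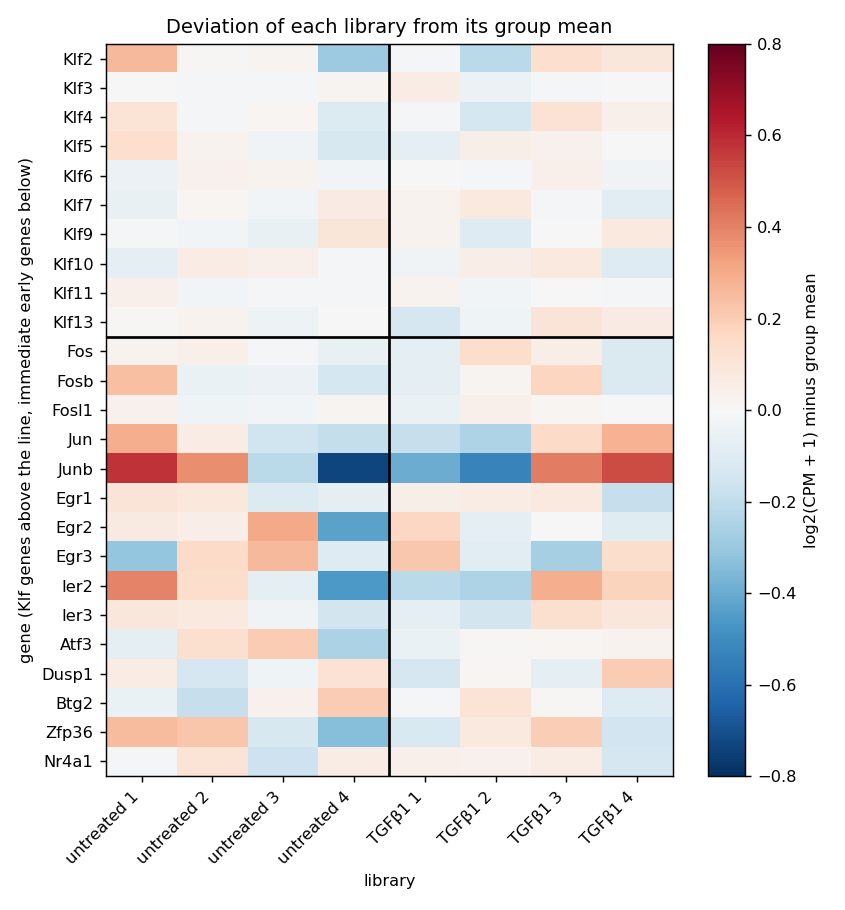
Deviation of each library from the mean of its group in log2(CPM + 1), for the 10 Klf genes (above the line) and 15 immediate early genes (below it). Red is above and blue below the group mean; Junb ranges from -0.73 to 0.58 in untreated cells, and Klf2 from -0.29 to 0.26 with the same libraries at its ends.

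Of the immediate early genes, 12 of the 15 were higher, 1 was lower and 2 were not called, with a median log2FC of 0.51. Of all genes tested 37.6% were called higher and 38.0% lower. In 10 of the 15 the groups did not overlap in CPM, against 69.8% of all genes tested. Jun, Junb and Zfp36 were called higher although their libraries overlapped, Junb at 48.1 to 121 CPM in untreated and 100 to 209 CPM in treated libraries. Fosl1 rose by 3.52, Egr3 by 1.59, Btg2 by 1.42 and Fosb by 1.40 on the log2 scale, and Atf3 fell by 0.40. Ier2 and Ier3 were not called. Jun, with a log2FC of 0.30, did not pass the test when library totals were used for scaling (edgeR FDR 0.0782), nor with DESeq2 (FDR 0.101). Klf2, Klf4, Klf6 and Klf10 are themselves known as early-response genes, and among these 4, 2 rose and 2 fell.

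The rest of the family, 16 further KLF and SP genes that share the zinc finger domain, held 3 genes with larger changes than any of the 10, Klf15, Sp6 and Sp9, all at low counts in 1 of the groups. Of the 16 genes, 9 were tested, 2 were higher, 5 were lower and 2 were not called, with a median log2FC of -0.21. Over all genes tested, 37.6% were called higher and 38.0% lower, so these counts do not set the list apart. Klf15, a glucocorticoid-responsive regulator of metabolism, had 61, 65, 45 and 38 reads in the untreated libraries and 2, 2, 2 and 3 reads in the treated libraries, a ratio of 22.0 between the groups with a 95% counting interval from 11.3 to 48.7 (edgeR FDR 1.45e-38). Sp6, known from tooth development, had 2.51, 2.22, 1.79 and 2.84 CPM in the untreated libraries and 24.0, 26.1, 26.9 and 26.4 CPM in the treated libraries. This was a log2FC of 3.48 with SE 0.121 and edgeR FDR 3.93e-239. Most of Sp6, 86.5% of its stretches of read length, also lies on the opposite strand in Gm11532, which itself held 0 to 8 reads per library. Sp9, known from limb and forebrain development, had 1, 0, 0 and 1 reads in the untreated and 13, 24, 10 and 33 reads in the treated libraries, a ratio of 42.3 with a 95% counting interval from 11.3 to 355 (edgeR FDR 6.36e-18).

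Sp1 and Sp3, the broadly expressed members of the SP branch, fell by 0.25 and 0.33 on the log2 scale, Sp4 fell by 0.71 and Sp2 by 0.16. Klf16 had a log2FC of 0.03 (edgeR FDR 0.701). Klf12 had a log2FC of -0.21 (edgeR FDR 0.121) and passed the test with library totals (log2FC -0.27, edgeR FDR 0.0370). Klf1, Klf8, Klf14, Klf17, Sp5, Sp7 and Sp8 were too low to be tested. Klf1 had at most 6 and Klf8 at most 5 reads in any library.

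Among 11 co-regulators that Krüppel-like factors bind, 3 were higher, 5 lower and 3 not called, with a median log2FC of -0.11. Over all genes tested, 37.6% were called higher and 38.0% lower, so these counts do not set the co-regulators apart. The deacetylase gene Hdac1 rose by 0.50 and the acetyltransferase gene Ep300 by 0.39 on the log2 scale. The higher call of Crebbp (log2FC 0.16) was lost with library totals (edgeR FDR 0.216). Sin3a, the scaffold used by KLF9, KLF10, KLF11 and KLF13, fell by 0.40, while Sin3b was not called (log2FC -0.07, edgeR FDR 0.209). Ctbp1, which KLF3 recruits, fell by 0.21, Rcor1 by 0.24, and the deacetylase genes Hdac3 and Hdac2 by 0.21 and 0.18. Ctbp2 had a log2FC of -0.11 (edgeR FDR 0.0548). It passed with edgeR's quasi-likelihood test (FDR = 0.0469) and, like Sin3b, was called lower with library totals (FDR = 0.00137 and 0.00999 from edgeR, in that order).

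Of 13 genes in the pathway upstream of Klf2 and Klf4, 12 were tested, 6 were higher and 5 lower, with a median log2FC of 0.09. Over all genes tested, 75.6% were called, 37.6% as higher and 38.0% as lower, so a call does not set a gene of this pathway apart. Of the 4 kinases of the cascade 3 were lower, with a log2FC of -0.41 for Map2k5 (MEK5), -0.20 for Map3k3 (MEKK3) and -0.19 for Mapk7 (ERK5), and Map3k2 (MEKK2) was not called (log2FC 0.06, edgeR FDR 0.258). Mef2d and Mef2a rose by 0.40 and 0.19, whereas Mef2c, with at most 11 reads in any library, was too low to be tested. The cerebral cavernous malformation genes, whose products restrain the cascade, were split: Krit1 rose by 0.71 and Pdcd10 fell by 0.21. The higher call of Ccm2, at 0.12, was lost with library totals (edgeR FDR 0.342). Rasip1, known for its part in vessel lumen formation, fell by 2.88 on the log2 scale, from 18 to 26 reads in the untreated libraries to 1 to 5 reads in the treated libraries. The mechanosensitive channel gene Piezo1 rose from 606 ± 51.9 to 737 ± 25.5 CPM (SD, n = 4), a log2FC of 0.28.

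Genes that KLF2 and KLF4 are known to activate or repress in endothelial cells were at uneven levels in this line, in which Cdh5 and Pecam1 were nearly without reads. Of 11 such genes 7 were tested, 2 were higher, 2 lower and 3 not called, with a median log2FC of -0.16. Over all genes tested, 37.6% were called higher and 38.0% lower. Ccl2 and Vcam1, which KLF2 is known to repress, rose by 1.39 and 0.41 on the log2 scale. Edn1, the gene of endothelin-1 and likewise repressed by KLF2, fell from 78.3 ± 2.02 to 35.7 ± 0.454 CPM, a log2FC of -1.13. Thbd, which KLF2 activates, fell by 0.31. Nos3, the endothelial nitric oxide synthase gene and another activated target, had 12 to 31 reads per library and was not called (log2FC -0.44, edgeR FDR 0.102). S1pr1 and Tek were not called either, and Aqp1, Cdh5, Sele and Angpt2, with at most 8 reads in any library, were not tested.

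All 8 listed target genes of KLF5, KLF6, KLF10 and KLF11 were called higher, as were 37.6% of all genes tested. The list was chosen with earlier results of these data known, so this count is a description and not a test. Their median log2FC was 0.68. They were Eng (1.21), Ccnd1 (1.17), Cdkn1a (1.14), Smad7 (0.89), Pdgfa (0.46), Tgfb1 (0.31), Plau (0.30) and Tgfbr1 (0.16), each as a log2FC. In 6 of the 8 the groups did not overlap in CPM, as in 69.8% of all genes tested. Tgfb1, at 31.3 to 41.4 CPM in untreated and 38.5 to 51.5 CPM in treated libraries, and Tgfbr1 overlapped. The list joins genes that these factors activate, such as Eng and Cdkn1a with KLF6, and genes that they repress, such as Smad7. Several are TGFβ-responsive on their own. The call of Tgfbr1 was lost with library totals (edgeR FDR 0.121).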

How the data were processed

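The authors sequenced stranded poly(A) libraries of SV-LECs with single-end reads of 75 bases and deposited, for each gene, its raw read count. The submitters' processing notes name bcl2fastq 2.20.0.422, STAR 2.7.3a and featureCounts 1.5.1, and the reads were mapped to GRCm38. The annotation release and the strand setting are not given in the sources used here. Groups were taken from the sample titles. The fit used edgeR 4.0.16 under R 4.3.3: filterByExpr, TMM scaling, estimateDisp, glmFit with a prior count of 0.125 and glmLRT, the test named in the study's methods. Benjamini-Hochberg adjustment covered the 13818 genes tested. CPM use TMM-scaled library sizes. Standard errors come from the fitted model. Ratios within pairs used counts plus 0.5. Positions, exon lengths and shared stretches came from GENCODE M21. The code was tested on simulated data. Alternatives were edgeR's quasi-likelihood test, DESeq2 1.42.0, its size factors, library totals, other filters, an FDR of 0.01, a prior count of 2, the replicate block, 5 added to each count of a pair and each library left out.

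All 10 members are named. From each gene list up to 6 genes past the threshold with the largest change could be named, and genes whose filter or test result bears on a count; further genes named to complete a small count, and the immediate early genes compared with Klf2 by library, were chosen after their values were seen. Members and lists were chosen with earlier results of these data known. In the list of endothelial target genes 1 further gene is not reported here, and the counts and median of that list leave it out. Within each group, chi-square per degree of freedom between libraries was 2.37 to 7.84, more than sampling noise. Depth was 18952504 to 26386941 counts per library.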

Additional observations from a re-analysis of the deposited data

Results flagged for a closer look

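Klf11 in untreated replicate 1, at 50.8 CPM, stood apart from the other untreated libraries, whose nearest value was 49.0 CPM. Its gap was 0.866 of the range of the group, above the limit of 0.829 for 4 samples. Among the 20 groups examined for the 10 genes this was the one such value, and about 1 in 20 groups is picked out in this way by chance. Without this library Klf11 was still lower after TGFβ1 (log2FC -0.17, edgeR FDR 0.00115).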

How the results depend on the processing

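The counts of 2 higher and 7 lower Klf genes were the same under DESeq2, the quasi-likelihood test, library totals, scaling by DESeq2 size factors, both other filters, the FDR of 0.01 and the replicate block, and with each library left out. With library totals the median log2FC of all genes moved from -0.01 to -0.07, and Klf10, at 0.14, had an FDR of 0.0123 from edgeR. Where 4 libraries had to reach 1 CPM, 1 of the other KLF and SP genes was higher, since Sp9 was no longer tested, and without a filter, where 27709 genes were tested, 3 were, against 2. With each library left out, 4 to 6 of them were lower, the 4 without TGFβ1 replicate 4 and the 6 without untreated replicate 3, against 5. The replicate numbers did not pair the libraries: deviations from the group means correlated at -0.19, -0.09, -0.04 and -0.31 in libraries of the same number, and no library correlated best with its own number. With the replicate block 5075 genes were higher and 5077 lower, against 5198 and 5251. The changes within the 5 pairs kept their direction under all alternatives run; with the block or with a library left out they were computed as values without a test. Klf2, with 92 reads in 1 library, and the genes with under 20 reads have the least precise values.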
